A study of Mus musculus with 8 samples.

Results

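The genes of the oxysterol-binding protein family were read in retinal ganglion cells, whose axons form the optic nerve, of mice with and without the lysosomal cholesterol exporter NPC1. The 10 members, Osbp, Osbpl1a, Osbpl2, Osbpl3, Osbpl5, Osbpl6, Osbpl8, Osbpl9, Osbpl10 and Osbpl11, were taken by gene symbol from the 24942 genes of the deposited table, and all 10 were found. All 10 also passed the filter on low values, a mean of at least 10 normalized reads over the 8 libraries, as did 15386 genes in all. RNA was taken directly from cells that immunopanning, a capture on antibody-coated plates, had purified from the retina at postnatal day 8. The 4 NPC1-deficient and 4 wildtype libraries came from littermates of the strain balb/cnctr-npc1m1n/j, whose mutant allele is carried in every cell of the animal. The labels give neither the sex of the mice nor the number of animals in a library. They do not state that libraries are of different animals either, so a p-value speaks only of spread between libraries, which may in part be technical. The titles set the groups here, although another label field names libraries 1 and 2 wildtype and libraries 3 and 4 homozygous whatever the title. Libraries 1 and 2 form the first library set and libraries 3 and 4 the second.

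Oxysterol-binding proteins carry a lipid such as cholesterol or phosphatidylserine from one membrane to another where the membranes lie close together, and many of them return phosphatidylinositol 4-phosphate in exchange. Most are held at the endoplasmic reticulum, either by binding the VAP proteins or by a membrane anchor of their own. In cells that lack NPC1, cholesterol collects in late endosomes and lysosomes, which makes the members that work at those organelles of interest in this comparison.

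Npc1 was read first, as the check of the titles. It lay between 707 and 857 normalized reads in wildtype libraries. In NPC1-deficient libraries 1 to 4 it stood at 139.8, 70.0, 67.6 and 66.1, so NPC1-deficient 1 was the highest of its group. The log2 fold change of Npc1 was -3.25, with an SE of 0.20 and a limma adjusted p of 3.23e-05. The ganglion cell markers Rbpms, at 20905 to 24180, and Pou4f2, at 11048 to 12762 normalized reads, were high in every library. Of 14 ganglion cell markers 11 had a positive difference and 3 a negative one, and they summed to between 398002 and 424971 in wildtype, against 425143 to 451513 in NPC1-deficient cells. Markers of other retinal cells were also present. All 15 markers of microglia had a negative difference, with sums of 3733 to 15281 in wildtype against 2676 to 4342 in NPC1-deficient libraries, and none was at 0. All 9 rod markers had a negative difference, with sums of 2508 to 6150 against 1463 to 2050, and none was at 0. The 7 amacrine markers tested all had a negative difference, with sums over the 8 listed of 2446 to 4719 against 1413 to 2096. All 3 cone markers and all 6 bipolar markers tested were negative as well, with 4 of 6 for Mueller glia and astrocytes and 4 of 7 for vascular cells and fibroblasts, and with limma and with edgeR on 6 libraries 0 markers of these other cell types passed. At an unadjusted p under 0.05 limma gave 34 of them, where 6.76% of all genes tested fell below it. These were 14 of 15 microglia, 7 of 9 rod, 5 of 7 amacrine and 3 of 6 bipolar markers tested. They also held 0 of 3 cone, 3 of 6 glial and 2 of 7 vascular and fibroblast markers. Median log2 fold changes were -1.47 for microglia, -1.10 for rod, -1.54 for amacrine and -0.87 for bipolar markers. For cone, glial and vascular markers they were -0.37, -0.28 and -0.044. DESeq2 on 6 libraries called 3. The part of these cells in the values of the family was not tested, and in bulk RNA fewer cells of a type and less RNA per cell cannot be told apart.

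No member of the family passed the test between NPC1-deficient and wildtype cells. With limma over all genes tested and Benjamini-Hochberg adjustment at 0.05, 0 of 10 members passed, where 16 of 15386 genes (0.104%) did. At an unadjusted p under 0.05 there was 1 member, Osbpl2, beside 1040 genes or 6.76% of those tested. Both count tests run on 6 of the libraries, edgeR and DESeq2, also gave 0 members, and 0 at an unadjusted p under 0.05. With quantile scaling, upper-quartile scaling or a term for replicate number, limma too gave 0 members at an unadjusted p under 0.05. Of the 10 members 6 had a positive and 4 a negative difference, where 52% of all genes tested were positive. Their median was 0.03 on the log2 scale, and over all genes tested it was 0.005. The single members ran from -0.08 (Osbpl6) to 0.14 (Osbpl3). With single libraries left out, Osbpl6 lay between -0.13 (without NPC1-deficient 2) and -0.019 (without NPC1-deficient 3). Osbpl3 lay between 0.049 (without NPC1-deficient 4) and 0.25 (without wildtype 1), and limma on the 6 libraries with recovered reads put it at 0.00066. All these differences are of log2(value + 1), a scale that understates the change of low genes.

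As far as the spread between libraries tells, the data limit how large an undetected change could be. For 9 of the 10 members the 95% interval of the difference lay within a 1.5-fold change in either direction, and for 8 of them within a 1.3-fold change. On the log2 scale the narrowest intervals were those of Osbpl2, at 1.003-fold to 1.15-fold of wildtype, and Osbpl9, at 0.92-fold to 1.05-fold. Osbpl3 was the exception at 1.5-fold, with an interval of 0.81-fold to 1.51-fold, and Osbpl10 had the second widest, 0.76-fold to 1.26-fold. These intervals are not adjusted for the number of members. They rest on spread between libraries, which may in part be technical, so they may be too narrow for a difference between animals.

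**Figure D1:**
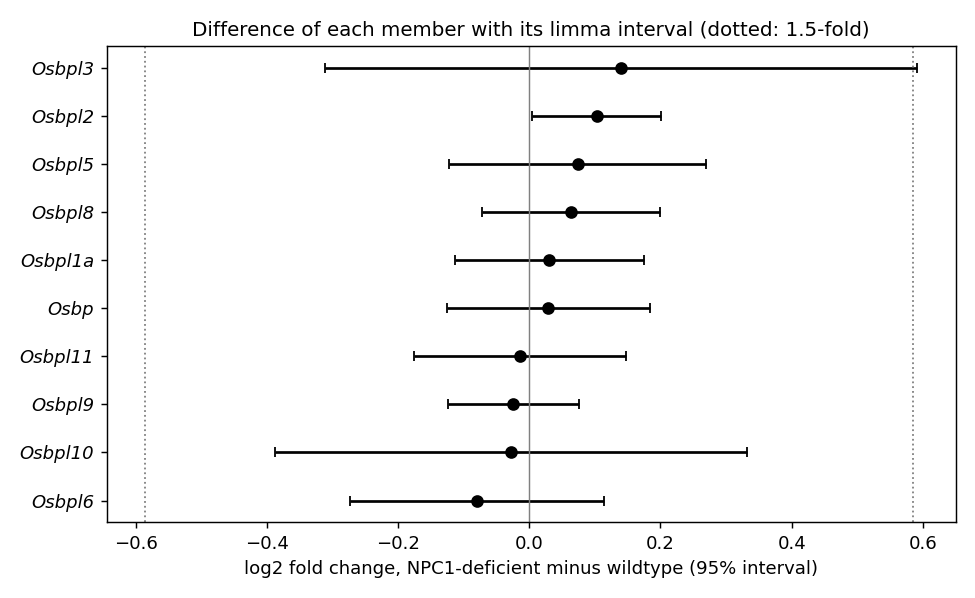
Points are the limma log2 fold change of each member, NPC1-deficient minus wildtype, on log2(value + 1), and bars are 95% intervals, with dotted lines at a 1.5-fold change. The interval of Osbpl2 lies just above 0 and those of the other 9 members include 0.

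The level of each member was compared per kilobase of exon in the annotation, since longer transcripts collect more reads. Osbpl1a and Osbpl2 stood highest, at 681 ± 48.7 and 673 ± 27.8 normalized reads per kilobase (SD, n = 8), and their ranges over libraries overlapped. Osbpl1a was the higher in all 4 wildtype libraries and in NPC1-deficient 1, and Osbpl2 was the higher in the 3 others. Osbpl9 followed at 505 ± 12.7 and Osbp at 336 ± 22.8, each clear of its neighbours in every library. Osbpl8 lay at 193 ± 11.1 and Osbpl5 at 144 ± 13.3, also without overlap of their ranges. Osbpl10, at 104 ± 22.3, was below Osbpl5 in 8 of 8 libraries, although their ranges over libraries overlapped through NPC1-deficient 2. Osbpl10 was above Osbpl11, at 101 ± 4.91, in 4 of 8 libraries. Osbpl6 stood at 60.6 ± 5.22 and Osbpl3 last at 4.37 ± 0.827. Osbpl1a lay at the 81.1 percentile of tested genes with a known exon length, Osbpl10 at the 48.6 and Osbpl3 at the 5.22. Osbpl1a, Osbpl2 and Osbpl9 together held between 64.8% and 67.5% of the summed level of the 10 members per kilobase in each library. The union of all annotated exons was used as length, so a gene expressed mainly as a short transcript is placed too low.

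**Figure D2:**
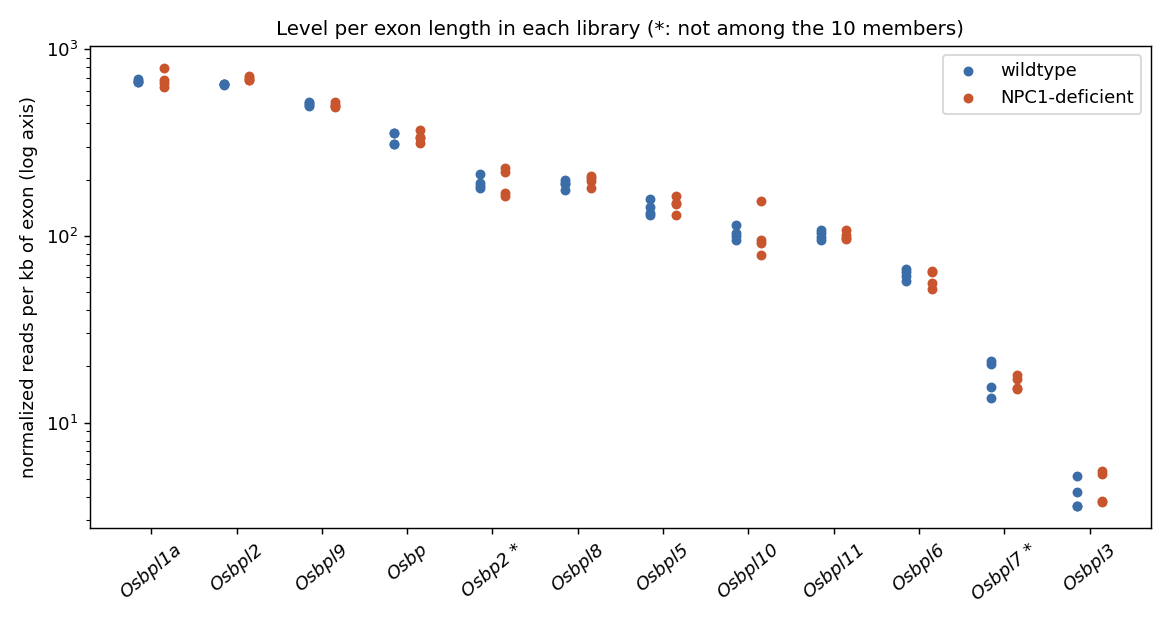
Each point is 1 library, in normalized reads per kilobase of exon on a log axis, ordered by the mean over 8 libraries, with wildtype at the left and NPC1-deficient at the right of each gene. Osbpl1a, Osbpl2 and Osbpl9 lie highest, near 500 to 700, and Osbpl3 lowest, near 4.37.

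Among the members that move sterol between organelles, Osbpl2 encodes a protein that lacks the membrane-targeting pleckstrin homology domain of most of the family and works at lipid droplets and the plasma membrane. Osbpl2 (ENSMUSG00000039050) lies on chromosome 2 from 180119306 to 180162680, plus strand, mm10. It stood at 2733, 2709, 2733 and 2700 normalized reads in libraries 1 to 4 of the wildtype group and at 2924, 3012, 2869 and 2875 in those of the NPC1-deficient group. Every NPC1-deficient library was above every wildtype library, which was the case for 1 of 10 members and, with the NPC1-deficient group higher, for 286 of 15386 genes (1.86%); with either direction counted it was 4.27%. The means were 2719 ± 16.8 and 2920 ± 66.1 (SD, n = 4). The log2 fold change was 0.10 (SE 0.04, 95% interval 0.0048 to 0.20), a 1.07-fold level, and the limma adjusted p was 0.685. Over the alternatives tried the adjusted p of Osbpl2 ran from 0.507 to 0.9998. The spread of Osbpl2 within groups, 0.02 on the log2 scale, was at the 0.149 percentile of all tested genes, while limma draws each gene's variance toward that of genes at the same level. Its coefficient of variation over the 6 libraries of both groups with recovered reads was 3.36%, where counting error alone gives 1.89%. That coefficient includes the difference between the groups. The wildtype SD of 16.8 on a mean of 2719 is a smaller share than this counting error. The part of this small wildtype spread in the lack of overlap was not tested.

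The promoter of Osbpl2 is shown because it is the 1 member whose groups did not overlap, with that of Osbp, which gave the family its name, for comparison. Both are RefSeq windows on GRCm38.p6, from 250 bases before the start to 50 after, at chr2:180119056-180119355 and chr19:11965594-11965893 on the plus strand, and capitals mark matches on either strand to CCAAT and to GGGCGG.
Osbpl2: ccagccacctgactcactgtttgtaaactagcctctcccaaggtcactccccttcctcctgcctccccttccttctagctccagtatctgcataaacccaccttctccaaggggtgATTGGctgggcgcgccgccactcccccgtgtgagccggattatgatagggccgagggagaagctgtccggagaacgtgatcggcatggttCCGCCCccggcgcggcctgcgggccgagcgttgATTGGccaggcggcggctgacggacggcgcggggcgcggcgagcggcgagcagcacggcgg
Osbp: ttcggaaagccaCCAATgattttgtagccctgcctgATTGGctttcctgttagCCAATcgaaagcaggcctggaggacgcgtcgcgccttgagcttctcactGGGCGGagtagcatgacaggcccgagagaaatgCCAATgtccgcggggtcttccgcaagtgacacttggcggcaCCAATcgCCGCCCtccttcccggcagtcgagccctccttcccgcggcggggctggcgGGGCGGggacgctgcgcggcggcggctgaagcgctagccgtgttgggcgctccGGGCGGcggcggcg
Windows were read for 8 of the 10 members, all but Osbpl1a and Osbpl10. The motif counts below therefore do not cover Osbpl1a and Osbpl10. The short sterol regulatory element TCACNCCAC was in the windows of 0 of the 8 and in 1.24% of all 32851 windows of this length. The E-box CACGTG was in those of 2, Osbpl5 and Osbpl8, and in 7.15% of all windows. The letters GGGCGG occurred in those of 8 members and in 35.7% of all windows, and CCAAT in those of 7 and in 37.4%. Osbpl5, Osbpl6 and Osbpl9 had more than 1 window, so their chance of a match is higher.

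Osbp encodes the founding protein, which exchanges cholesterol for phosphatidylinositol 4-phosphate between the endoplasmic reticulum and the Golgi and is also found at lysosomes. Osbp (ENSMUSG00000024687, chromosome 19, 11965941 to 11994112, plus strand) stood at 1391, 1391, 1597 and 1592 normalized reads in libraries 1 to 4 of the wildtype group and at 1653, 1497, 1524 and 1414 in those of the NPC1-deficient group. The groups overlapped, and the wildtype libraries fell into a lower pair, 1 and 2, and a higher pair, 3 and 4. The log2 fold change was 0.03, with an SE of 0.07 and a limma adjusted p of 0.995.

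Osbpl1a encodes a protein whose long form binds the small GTPase Rab7 on late endosomes and senses their cholesterol. Osbpl1a (ENSMUSG00000044252, chromosome 18, 12755314 to 12941841, minus strand) stood at 5185, 5363, 5243 and 5164 normalized reads in libraries 1 to 4 of the wildtype group and at 6181, 5294, 4906 and 5104 in those of the NPC1-deficient group. NPC1-deficient 1 was the highest and NPC1-deficient 3 the lowest of all 8 libraries, so the wildtype range lay within the other. The log2 fold change was 0.03, with an SE of 0.07 and a limma adjusted p of 0.995. Leaving out NPC1-deficient 1 gave -0.039. The counts do not separate long from short forms. Of its exonic length 10.98% overlaps AC102055.1 on the other strand, and the library kit does not mark strand. Among the members only Osbpl1a lies on chromosome 18, which also holds Npc1, from 12189692 to 12236400. The part of this nearness to the mutated gene in the values of Osbpl1a was not tested.

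Osbpl5 and Osbpl8 encode proteins anchored in the endoplasmic reticulum that carry phosphatidylserine to the plasma membrane. The first has also been linked to the exit of cholesterol from late endosomes. Osbpl8 (chromosome 10, 111164752 to 111297249) lay between 1657 and 1876 normalized reads in wildtype and between 1706 and 1964 in NPC1-deficient libraries, with a log2 fold change of 0.06 (SE 0.06, limma adjusted p = 0.984). Osbpl5 (chromosome 7, 143688762 to 143756985) lay between 632 and 777 in wildtype and between 638 and 807 in NPC1-deficient libraries, with a log2 fold change of 0.07 (SE 0.09, limma adjusted p = 0.995). For both genes the ranges of the groups overlapped over most of their length. The Osbpl5 difference was -0.006 with limma on the 6 libraries other than replicate 2 of each group.

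Osbpl9, Osbpl10 and Osbpl11 encode proteins that act at the Golgi and endosomes, where the first pairs with each of the other 2. Osbpl9 (chromosome 4, 109061145 to 109202272) stood at 3516, 3671, 3615 and 3476 normalized reads in libraries 1 to 4 of the wildtype group and at 3481, 3426, 3497 and 3639 in those of the NPC1-deficient group. Its spread within groups was the lowest among the members after Osbpl2, and over the 6 libraries with recovered reads its coefficient of variation was 2.01%, where counting error alone gives 1.68%. Its log2 fold change was -0.02, with an SE of 0.05 and a limma adjusted p of 0.995. Of the exonic length of Osbpl9 9.04% overlaps Nrd1 on the other strand. Osbpl11 (chromosome 16, 33185071 to 33243312) lay between 486 and 549 in wildtype and between 487 and 546 in NPC1-deficient libraries, nearly the same range, with a log2 fold change of -0.01 (SE 0.07).

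Osbpl10 was the most variable member within groups. Osbpl10 (chromosome 9, 114978569 to 115232225) stood at 535, 513, 590 and 490 normalized reads in libraries 1 to 4 of the wildtype group and at 490, 787, 403 and 472 in those of the NPC1-deficient group. NPC1-deficient 2 was the highest of all 8 libraries and NPC1-deficient 3 the lowest. The means were 532 ± 43.0 and 538 ± 169.9 (SD, n = 4), and without NPC1-deficient 2 the second was 455 ± 45.7 (SD, n = 3). The log2 fold change was -0.03, with an SE of 0.16 and a limma adjusted p of 0.995. Leaving out NPC1-deficient 2 gave -0.23 (limma adjusted p = 0.677). Over all alternatives the adjusted p of Osbpl10 ran from 0.295 to 0.99998.

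Osbpl6 encodes a protein of the endoplasmic reticulum and plasma membrane, and Osbpl3 one that binds VAP proteins and the small GTPase R-Ras and acts in cell adhesion. Osbpl6 (chromosome 2, 76406508 to 76600647) stood at 669, 648, 613 and 574 normalized reads in libraries 1 to 4 of the wildtype group and at 643, 651, 522 and 560 in those of the NPC1-deficient group. Its 2 lowest libraries were NPC1-deficient 3 and 4, and the groups overlapped, with a log2 fold change of -0.08 (SE 0.09, limma adjusted p = 0.995). Osbpl3 (chromosome 6, 50293330 to 50456201) was the 1 member under 50 normalized reads in every library, at 46.7, 32.3, 38.2 and 32.3 in wildtype and 34.5, 48.0, 33.8 and 49.6 in NPC1-deficient libraries. Both groups held low and high libraries, and the log2 fold change was 0.14, with an SE of 0.21 and a limma adjusted p of 0.995. Its spread over the 6 libraries with recovered reads, a coefficient of variation of 18.6%, compares with a counting error of 16.1% for 31 to 48 reads.

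**Figure D3:**
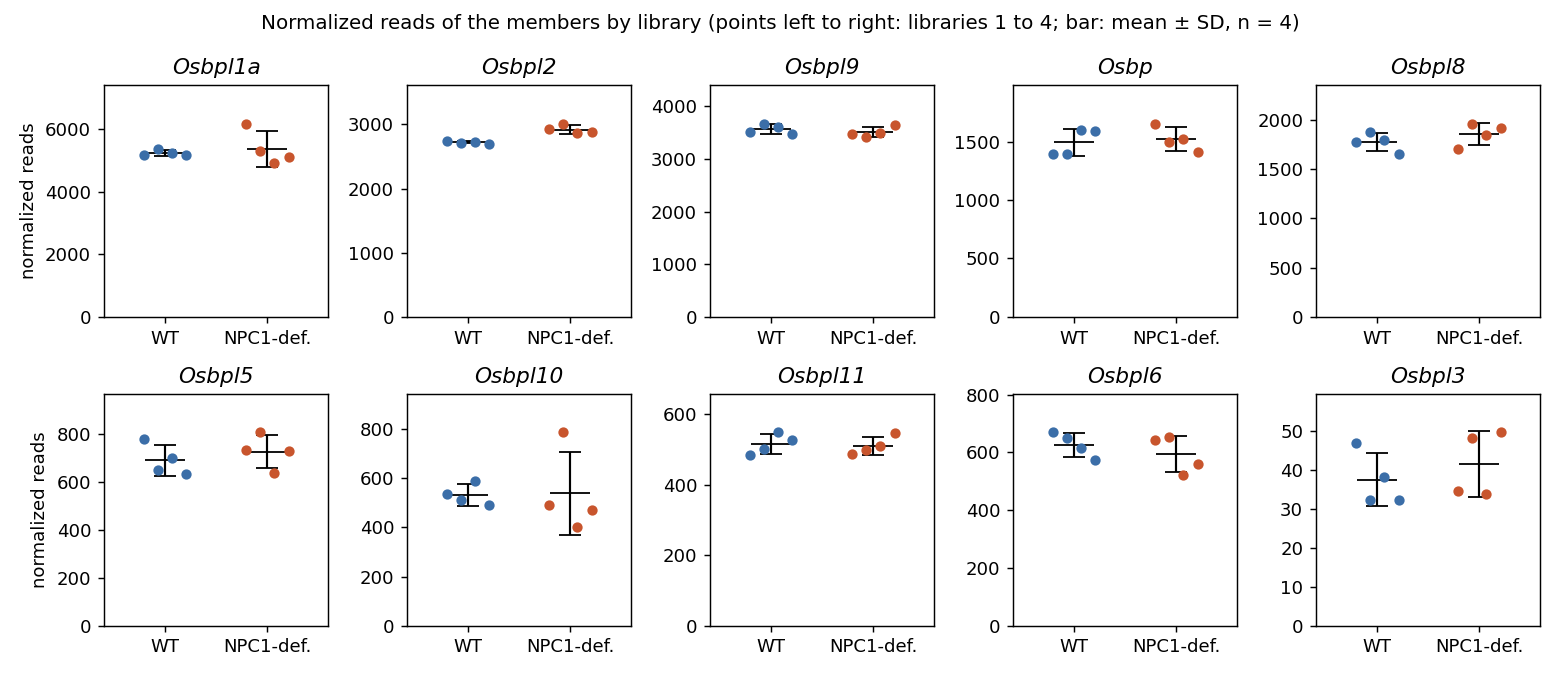
Each panel gives 1 member in normalized reads on a linear axis from 0, with points for libraries 1 to 4 from left to right in wildtype (WT) and NPC1-deficient (NPC1-def.) groups and bars for mean ± SD (n = 4). Osbpl2 is the member whose groups do not overlap, and NPC1-deficient 2 stands above the other libraries for Osbpl10.

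For 8 of 10 members the spread within groups was below the median of all tested genes, 0.15 on the log2 scale. The exceptions were Osbpl10 at 0.30 and Osbpl3 at 0.27. Genes with a like level of reads were not compared, so whether this spread is particular to the members was not tested. The summed level of the 10 members per kilobase was 2765 ± 40.8 in wildtype and 2841 ± 108.8 in NPC1-deficient libraries (SD, n = 4), and the 2 highest sums were NPC1-deficient 1 and 2. The lowest sum was also in the NPC1-deficient group, 2715 in NPC1-deficient 3, followed by 2724 in wildtype 4.

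The differences were then taken within each library set. For 4 of 10 members, Osbp, Osbpl1a, Osbpl9 and Osbpl10, the sign differed between the sets, where this held for 53.6% of all genes tested. Osbp differed by 0.18 within libraries 1 and 2 and by -0.12 within libraries 3 and 4. In the first set both NPC1-deficient libraries were above both wildtype libraries, and in the second both were below. The test of that difference, an interaction of genotype and set, gave -0.30 (SE 0.10, limma unadjusted p = 0.0146, adjusted p = 0.258). Osbpl10 differed by 0.25 and -0.30 (limma adjusted p = 0.386 for the interaction), with NPC1-deficient 2 carrying the first value. Osbpl2 differed by 0.13 and 0.08 and Osbpl8 by 0.004 and 0.12. With limma 0 of 10 members passed the interaction test, against 12 of 15386 genes (0.078%), and 1 member had an unadjusted p under 0.05, against 13.4% of genes.

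**Figure D4:**
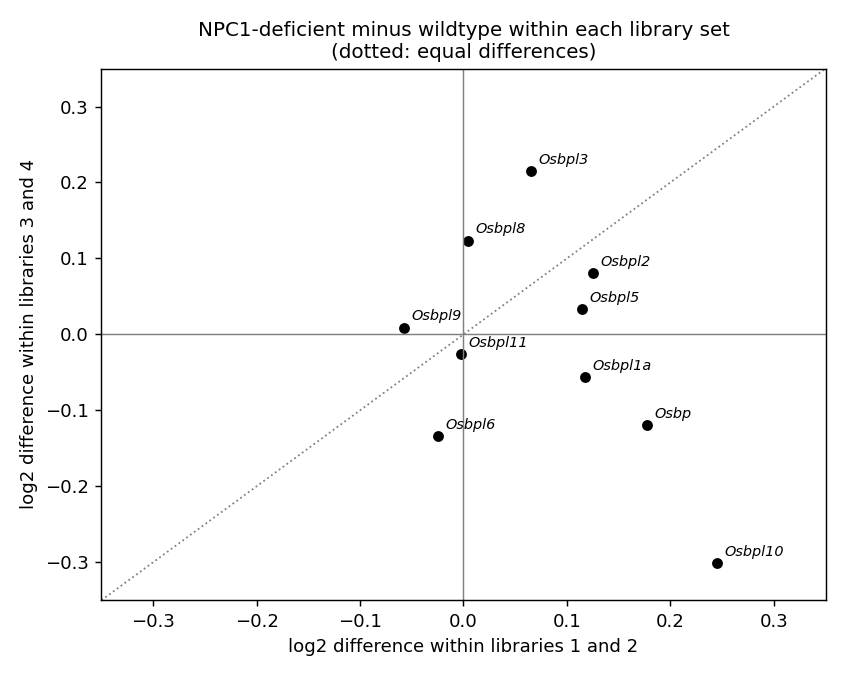
Each point is a member, with its log2 difference, NPC1-deficient minus wildtype, within libraries 1 and 2 on the x axis and within libraries 3 and 4 on the y axis, and the dotted line marks equal differences. Osbp, Osbpl1a and Osbpl10 lie at the lower right, positive in the first set and negative in the second.

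The family has 2 further genes in the table, Osbp2 and Osbpl7. Osbp2, the closest relative of Osbp, lay between 1153 and 1364 normalized reads in wildtype and between 1042 and 1463 in NPC1-deficient libraries, with a log2 fold change of 0.01 (SE 0.11, limma adjusted p = 0.996). NPC1-deficient 1 and 2 were its highest libraries and NPC1-deficient 3 and 4 its lowest, and the difference was 0.15 and -0.13 within the 2 sets (limma adjusted p = 0.300 for the interaction). Osbpl7 lay between 79.8 and 126.5 in wildtype and between 89.1 and 106.4 in NPC1-deficient libraries, with a log2 fold change of -0.10 (SE 0.16, limma adjusted p = 0.995).

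The proteins that oxysterol-binding proteins work with, and relatives of these proteins, were read from lists of the same pathway. In these lists edgeR and DESeq2 on 6 libraries also called 0 genes. Of 5 genes of the VAP and motile sperm domain families, 0 passed with limma and 1 had an unadjusted p under 0.05. The VAP genes Vapa and Vapb encode the main anchors at the endoplasmic reticulum. Their log2 fold changes were -0.01 (SE 0.04) and -0.02 (SE 0.05). Of the motile sperm domain genes, Mospd1 stood at 0.03 (SE 0.07) and Mospd2 at 0.29 (SE 0.11, limma adjusted p = 0.554). Mospd2 lay between 318 and 455 normalized reads in wildtype and between 426 and 525 in NPC1-deficient libraries, an overlap of the groups, with a difference of 0.51 in the first library set and 0.06 in the second.

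Phosphatidylinositol 4-phosphate is the lipid returned in the exchange. Of 14 genes of its kinases, their adaptors and its phosphatase, 0 passed with limma, and 0 had an unadjusted p under 0.05, with 8 positive and 6 negative differences and a median of 0.01. The Golgi kinase gene Pi4kb differed by 0.13 (SE 0.07), with 23.1% of its exonic length on opposite-strand genes. The next kinase in the pathway, Pip5k1a, differed by -0.18 (SE 0.11). The adaptor genes Ttc7 and Fam126b, which hold the plasma membrane kinase in place, differed by 0.19 (SE 0.14) and -0.10 (SE 0.07). Of 4 genes for Rab7, its effector Rilp and the phosphatidylserine synthases Ptdss1 and Ptdss2, 0 passed with limma and 0 had an unadjusted p under 0.05. Their log2 fold changes were 0.02 (Rab7), 0.20 (Rilp), 0.07 (Ptdss1) and 0.10 (Ptdss2).

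Other lipid transfer genes of membrane contacts gave larger differences than the family in some cases, though 0 of 27 tested passed with limma. At an unadjusted limma p under 0.05 there were 3, beside 6.76% of all genes tested. Stard4, a soluble sterol carrier, stood at 1488, 1416, 1768 and 1749 normalized reads in libraries 1 to 4 of the wildtype group and at 2074, 2067, 2091 and 2011 in those of the NPC1-deficient group. Every NPC1-deficient library was above every wildtype library. The log2 fold change was 0.37, with an SE of 0.07 and a limma adjusted p of 0.0796, and over the alternatives its adjusted p ran from 0.0150 to 0.396. Gramd1a, which moves plasma membrane cholesterol to the endoplasmic reticulum, differed by 0.12 (SE 0.05, limma adjusted p = 0.663). Stard3, which moves sterol at late endosomes, differed by -0.13 (SE 0.06, limma adjusted p = 0.685). Its mean was 989 ± 33.2 in wildtype and 902 ± 23.3 in NPC1-deficient libraries (SD, n = 4), without overlap of the groups. Esyt2, a tether of the plasma membrane, differed by 0.14 (SE 0.07, limma adjusted p = 0.761), also without overlap of the groups. Stard4, Stard3 and Esyt2 were the genes of this list without overlap, as were 4.27% of all genes tested. The 27 genes had 13 positive and 14 negative differences with a median of -0.002. Whether Stard4 differed from the members was not tested.

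The genes most like Osbpl2 and Osbpl8, the 2 members with the smallest unadjusted p, were taken from all tested genes by the correlation of log2 values over the same 8 libraries. They were chosen for the height of that correlation, so it is a description with no test. For Osbpl2 they included Aldh9a1 (Pearson r = 0.98), an aldehyde dehydrogenase gene, and Rab15 (0.96). For Osbpl8 they were Ptprr (0.97), a tyrosine phosphatase gene, Ttll3 (0.96) and Pxdn (0.96).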

How the data were processed

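RNA of 8 libraries, 4 NPC1-deficient and 4 wildtype, was sequenced. Per the labels' protocols the library kit was one that keeps no strand. The submitters' processing notes name mm10, CASAVA 1.8.2, HTSeq 0.5.4p3 and DESeq2 1.0.19 but give them no role. The aligner is not given in the sources used here. Each value deposited by the authors is a normalized signal per gene and library, here called normalized reads. In 6 libraries all values (100%) were whole multiples of 1 step within 1e-06 of a read, which gave 33030175 to 44050118 reads. In wildtype 2 and NPC1-deficient 2 the step lies too close to 1 for that check, so count tests used the other 6.

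Genes with a mean of at least 10 were kept (9556 removed), and log2(value + 1) was compared with limma 3.58.1 (R 4.3.3, mean-variance trend, no covariate, Benjamini-Hochberg over 15386 genes, threshold 0.05). The fit was run on simulated data as a check of the code. Its recovery of changes as small as those of the members is not given here, so it does not bear on them. Positions and exon lengths came from GENCODE mouse release M21, on the same assembly as mm10, where 98.1% of gene identifiers were found. Alternatives were other pseudocounts, filters, scalings and variance moderation, a term for replicate number or for library set, the sets fitted singly, single libraries left out, and edgeR 4.0.16 and DESeq2 1.42.0 on the recovered reads, the fits on 6 libraries having been added after the data were seen. Named were Npc1, the members, Osbp2 and Osbpl7, up to 4 genes of each other list with the smallest p, and the 3 genes most like each of 2 members. A gene that this rule names is not reported here. Members, lists and this rule were chosen with earlier results of these data known.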

Additional observations from a re-analysis of the deposited data

How the results depend on the processing

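In every alternative run, each library left out included, 0 members passed with limma, edgeR or DESeq2, and the adjusted p of single members ran from 0.295 to 0.99998. The interaction of genotype and library set also gave 0 members in each alternative run for it. The count of all genes called, 16, was 10 with a minimum mean of 50, 34 with the replicate block, 99 with the library set as a term, 57 in libraries 1 and 2 alone, 335 in libraries 3 and 4 alone, 1 with limma on 6 libraries, 1 with edgeR, 99 with DESeq2, and 2 to 144 when single libraries were left out. The extremes were without NPC1-deficient 3 and without wildtype 1. The cause was not tested. The replicate numbers are shared by the groups. Deviations from the group means correlated at r from -0.07 to -0.02 between same-numbered libraries. Between libraries of different number r ran from -0.12 to 0.099. Deviations from a group mean sum to 0, which ties these values around 0, so they cannot settle whether libraries are paired. The block gave 0 members. The planned edgeR and DESeq2 fits on 8 libraries were not run.

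Of 219 member values under alternatives 201 kept their sign and side of the threshold and 18 changed sign. Within libraries 3 and 4 the sign changed for Osbp (-0.12), Osbpl1a (-0.056), Osbpl9 (0.0090), Osbp2 (-0.13), Osbpl7 (0.20), Vapa (0.022) and Rab7 (-0.0088). Within libraries 1 and 2 it changed for Osbpl10 (0.25), Mospd1 (-0.076), Vapb (0.041) and Fam126b (0.050). On 6 libraries limma, edgeR and DESeq2 gave -0.0061, -0.0076 and -0.0070 for Osbpl5, -0.080, -0.071 and -0.071 for Osbp2, 0.023, 0.0071 and 0.0059 for Osbpl7 and 0.013, 0.011 and 0.012 for Vapa, and limma gave 0.0011 for Osbpl9. With upper-quartile scaling Osbp2 was at -0.00096, and with quantile scaling Rab7 was at -0.0033. Leaving out single libraries gave -0.011 to 0.064 for Osbp, -0.039 to 0.072 for Osbpl1a, -0.23 to 0.095 for Osbpl10, -0.047 to 0.016 for Osbpl11, -0.076 to 0.087 for Osbp2, -0.22 to 0.0024 for Osbpl7, -0.018 to 0.070 for Mospd1, -0.058 to 0.0051 for Vapb, -0.027 to 0.0060 for Vapa and -0.0015 to 0.036 for Rab7. Stard4 passed with the library set as a term (0.37, limma adjusted p = 0.0242) and in libraries 1 and 2 alone (0.51, limma adjusted p = 0.0150).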
